A study of Mus musculus with 6 samples.

Results

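The immediate early genes described here were Fos, Fosb, Jun, Junb, Atf3, Egr1, Nr4a1, Myc, Ier2 and Ier3, taken by gene symbol from a table of read counts for 35977 genes in mouse liver. All 10 had reads in every library, and 9 of them passed the filter on low counts that left 14374 genes for testing; Fosb, with 5 to 9 reads a library, did not. The samples were 6 bulk liver mRNA libraries in 2 groups of 3. The Cre-miR122 group (replicates 1, 2 and 4) came from livers of mice given an AAV9 vector in which the Tnnt2 promoter drives Cre recombinase and which also carries target sites for miR-122, the most abundant microRNA of hepatocytes. The Cre group (replicates 10, 11 and 12) received the same kind of AAV9-Tnnt2-Cre vector without those sites. Both groups therefore carried a Cre vector, and no group without a vector was analysed here. Tnnt2 encodes cardiac troponin T, so the promoter is chosen for heart muscle while the tissue sampled is liver. Strain, age, sex, dose, time after injection and batch are not given in the labels. Whether each library is a different animal is not stated either, so p-values measure only the spread between these samples, which may be technical.

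Immediate early genes are transcribed within minutes of a stimulus, from transcription factors that the cell already holds, and their RNAs decay quickly. Many encode transcription factors: FOS, JUN and ATF3 proteins pair through leucine zippers and bind AP-1 and cAMP response elements, EGR1 and NR4A1 bind DNA through zinc fingers, and MYC acts with its partner MAX. In liver they are known for their surge after partial hepatectomy, during stress and with feeding and fasting hormones, and for responding to the handling of tissue.

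Promoters are shown for 4 members chosen by their pattern over the libraries: Fos and Nr4a1, the members with the highest log2 fold changes and both highest in Cre-miR122 replicate 1, and the related genes Jun and Junb, which were highest in Cre replicate 11 and Cre-miR122 replicate 2. They are RefSeq promoter windows of build GRCm38.p6, from 250 bases before to 50 bases after the annotated start, written 5′ to 3′ on the gene's own strand. Capitals mark TGACG, the core of the cAMP response element, on either strand. They also mark TGACNTCA, a longer form of that element, and TATAAA. The windows are chr12:85473640-85473939 for Fos on the plus strand, chr15:101266596-101266895 for Nr4a1 on the plus strand, chr8:84978699-84978998 for Junb on the minus strand and chr4:95052173-95052472 for Jun on the minus strand. The Nr4a1 window lies inside the span that the count table gives for the gene, which begins at 101254213.
Fos: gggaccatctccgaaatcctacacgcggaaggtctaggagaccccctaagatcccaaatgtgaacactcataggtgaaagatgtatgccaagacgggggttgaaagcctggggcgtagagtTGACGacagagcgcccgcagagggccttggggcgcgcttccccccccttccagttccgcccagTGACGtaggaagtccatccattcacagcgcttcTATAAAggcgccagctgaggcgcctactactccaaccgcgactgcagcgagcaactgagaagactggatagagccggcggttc
Nr4a1: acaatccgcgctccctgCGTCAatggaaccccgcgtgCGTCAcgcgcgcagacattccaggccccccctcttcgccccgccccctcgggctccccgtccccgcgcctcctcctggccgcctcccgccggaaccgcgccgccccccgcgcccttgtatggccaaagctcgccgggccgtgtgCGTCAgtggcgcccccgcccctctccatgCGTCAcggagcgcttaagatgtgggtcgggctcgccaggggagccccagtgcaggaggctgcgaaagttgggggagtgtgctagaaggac
Junb: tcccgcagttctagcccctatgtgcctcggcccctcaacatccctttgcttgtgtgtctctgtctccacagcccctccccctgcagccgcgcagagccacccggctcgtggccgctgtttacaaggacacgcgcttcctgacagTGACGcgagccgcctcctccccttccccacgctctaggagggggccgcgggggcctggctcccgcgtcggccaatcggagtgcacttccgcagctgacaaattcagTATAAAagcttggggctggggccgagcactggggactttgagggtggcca
Jun: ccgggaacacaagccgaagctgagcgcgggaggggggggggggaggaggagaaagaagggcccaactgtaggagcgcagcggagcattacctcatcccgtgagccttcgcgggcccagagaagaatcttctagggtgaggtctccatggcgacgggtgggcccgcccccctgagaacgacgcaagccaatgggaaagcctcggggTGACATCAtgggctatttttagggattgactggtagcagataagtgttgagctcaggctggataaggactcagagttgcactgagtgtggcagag

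RefSeq windows of 7 members were searched on both strands, those 4 together with Fosb, Atf3 and Ier3. Egr1, Ier2 and Myc were not searched, so the counts below do not cover them. TGACG was present in 5 of the 7 (Fos, Fosb, Junb, Atf3 and Nr4a1), against 20.8% of 32851 windows of the same length. Nr4a1 held it 4 times, at 40, 69, 213 and 233 bases before the start, and Fos held it at 66 and 129 bases before the start. TGACNTCA occurred in 1 of the 7, Jun, at 45 bases before the start, against 8.83% of all windows. TATAAA was found in Fos, 33 bases before the start, and in Junb, where it begins at base 1, downstream of the annotated start, against 13.6% of all windows. The EGR motif GCGNGGGCG was present in Fosb and Nr4a1 (5.55% of all windows), and GGGCGG, which can overlap it, in 6 of the 7 (35.7%). Neither the AP-1 motif TGANTCA (7.81% of all windows) nor the CArG box bound by serum response factor (1.63%) occurred in the 7 windows, which says only that these letters are not within them. TGACNTCA includes TGACG when its open base is G. These matches are descriptions of sequence and not evidence of a bound site.

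Levels were compared between genes per listed gene length, as RPKM, the reads per kilobase scaled to library size. The order depends on these lengths, for example 5069 bases for Nr4a1 and 1090 bases for Ier3. Ier2 had the highest mean over the 6 libraries, 16.5 RPKM (13.0 to 19.5), followed by Egr1 with 12.7 (9.53 to 17.9) and Junb with 7.97 (5.26 to 11.3). Myc had a mean of 5.41 RPKM (2.7 to 13.6) and Jun a mean of 5.38 (3.07 to 7.91). A step then separated these 5 genes from the rest, since the ranges of Jun and Ier3 did not overlap. Ier3 had 0.950 RPKM (0.688 to 1.42), Nr4a1 0.617 (0.372 to 1.14), Atf3 0.559 (0.416 to 0.651) and Fos 0.539 (0.267 to 1.02). Fosb was lowest at 0.0859 RPKM (0.0632 to 0.106), below every value of Fos. All other neighbours in this order overlapped over the 6 libraries.

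Total counts ran from 20340994 to 20817837 a library, and the biological variation common to all genes was 11.8% (edgeR's coefficient of variation). The Cre sequence had 12, 16 and 10 reads in Cre-miR122 replicates 1, 2 and 4, against 61, 50 and 37 reads in Cre replicates 10, 11 and 12, so the groups did not overlap, which checks the labels. The libraries did not pair by group over all genes. By chi-square per degree of freedom, Cre-miR122 replicate 2 was nearest to Cre-miR122 replicate 4 (5.76) and to Cre replicate 12 (5.88), and Cre-miR122 replicate 4 and Cre replicate 12 differed by 8.20. Cre replicate 11 differed from every other library by 18.4 to 28.1, and Cre replicates 10 and 12 differed by 18.2. Cre replicate 10 also stood apart by sex-linked genes: it had 5 Xist reads and 1676 Ddx3y reads, where the others had 15778 to 22413 Xist reads and at most 1 Ddx3y read. By these reads Cre replicate 10 was male and the others female, so the groups were not matched for sex. Hepatocyte markers dominated all libraries, with a summed level for 8 genes of 138027, 138403 and 138534 CPM (read counts scaled to library size) in Cre-miR122 livers and 136575, 120003 and 143247 CPM in Cre livers. With equal weight per gene, Cre-miR122 replicate 1, the highest library for Fos, Nr4a1 and Ier3, had 8 of 8 hepatocyte markers above their 6-library means (mean log2 deviation 0.27) and 8 of 8 Kupffer cell and macrophage markers below them (mean -0.31, 7 of 8 lowest there). The hepatocyte deviation was uneven over genes: Tat had 1419 CPM in that library and 291 to 770 CPM in the others. Alb had 109228 CPM there and 93392 to 116981 CPM in the others. The summed Kupffer markers were 399, 531 and 497 CPM in Cre-miR122 livers and 505, 581 and 474 CPM in Cre livers, with none of the 8 at 0, and the part of these markers in the values of immediate early genes was not tested.

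**Figure D1:**
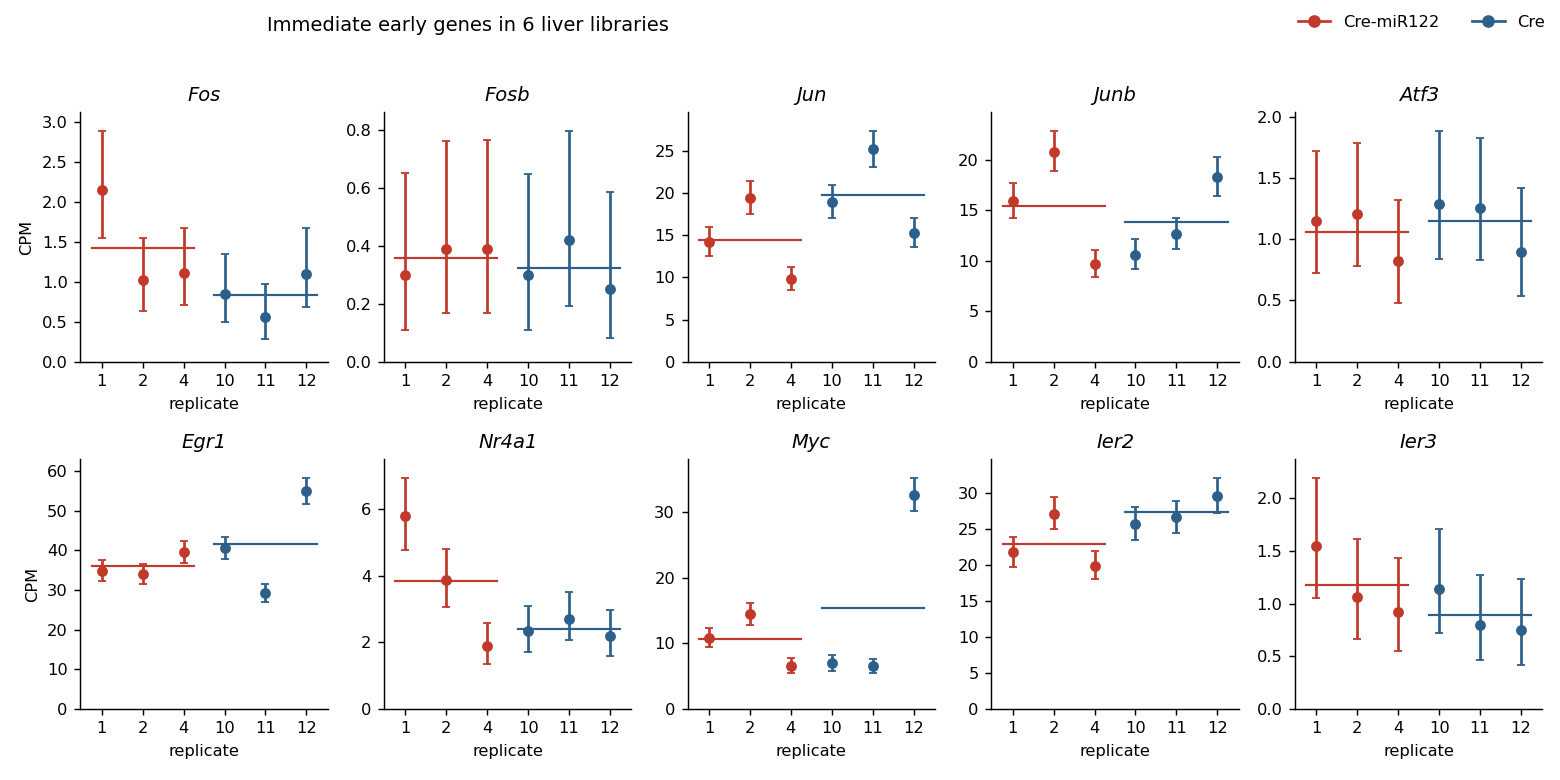
Level in CPM (reads scaled to library size, vertical axes, each starting at 0) of the 10 immediate early genes in each library, Cre-miR122 replicates in red and Cre replicates in blue. Points are libraries, bars are exact 95% Poisson intervals that cover counting error only, and horizontal lines are group means; Myc in Cre replicate 12 stands at 32.7 CPM, and the groups overlap for every gene.

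No immediate early gene passed the edgeR quasi-likelihood test between the groups. Of the 9 tested, 4 had log2 fold changes (Cre-miR122 minus Cre) above 0 and 5 below 0, with a median of -0.12 beside -0.0029 for all genes tested. The direction of that median turned with 1 library left out, to 0.034 after leaving out Cre-miR122 replicate 4 and 0.29 after leaving out Cre replicate 12. Those that passed a Benjamini-Hochberg adjusted p of 0.05 numbered 0 of 9, against 0% of all genes (0 genes by limma-voom and 3 by DESeq2), and the adjusted p of the members ran from 0.816 to 0.938. At an unadjusted p under 0.05 there were again 0 of 9, against 5.41% of all genes (397 higher and 381 lower). The groups were free of overlap for 0 of 9 members, against 11.1% of all genes. At unadjusted p under 0.05, DESeq2 had Jun and Nr4a1, edgeR with no filter on low counts had Fos, Jun, Ier2 and Nr4a1, and limma-voom had none of the members; none passed adjustment by any of these tools. With 1 library left out, edgeR had Nr4a1 (unadjusted p = 0.00218, without Cre-miR122 replicate 4) and Egr1 (0.0188, without Cre replicate 11). Without Cre-miR122 replicate 2 it had Ier2 (0.00658), Jun (0.0109) and Fos (0.0358). Without Cre replicate 12 it had Jun (0.0416) and Fos (0.0436). None of these passed adjustment. Without Cre replicate 10, the library apart by its sex-linked genes, log2 fold changes were 0.78 for Fos, 0.64 for Nr4a1, 0.60 for Ier3, 0.00042 for Junb, -0.032 for Atf3, -0.22 for Egr1, -0.30 for Ier2, -0.49 for Jun and -0.88 for Myc, each on the same side of 0 as with all libraries. In bulk liver, fewer cells of a type and less RNA per cell cannot be told apart.

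Among the AP-1 genes, Fos (chr12:85473901-85477269 in build GRCm38, as all gene positions here), whose protein binds DNA only with a JUN partner, had 43, 21 and 23 reads in Cre-miR122 replicates 1, 2 and 4, against 17, 12 and 22 reads in Cre replicates 10, 11 and 12. After scaling these were 2.14, 1.02 and 1.11 CPM in Cre-miR122 livers and 0.842, 0.559 and 1.10 CPM in Cre livers. Cre-miR122 replicate 1 was high and Cre replicate 11 low, and the other 4 libraries lay close together, so that the groups overlapped at their edge. The Fos log2 fold change was 0.77 (SE 0.37, 95% interval -0.062 to 1.60, n = 3 each, edgeR adjusted p = 0.816), the highest of the members. It was 0.36 without Cre-miR122 replicate 1.

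Fosb (chr7:19302696-19310226), which encodes another FOS family protein, was close to the limit of detection, with 6, 8 and 8 reads in Cre-miR122 livers and 6, 9 and 5 reads in Cre livers. Its level of 0.299, 0.387 and 0.387 CPM in Cre-miR122 livers overlapped the 0.297, 0.420 and 0.250 CPM of Cre livers. A difference in Fosb was not detectable at this depth; in a fit with no filter on low counts its log2 fold change was 0.15 (edgeR adjusted p = 0.959).

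Jun (chr4:95049036-95052222) encodes the AP-1 subunit that can pair with itself or with FOS and ATF proteins, and mouse studies have tied it to hepatocyte proliferation after liver injury. Its values were 14.2, 19.4 and 9.77 CPM in Cre-miR122 livers, against 19.0, 25.2 and 15.3 CPM in Cre livers. Cre replicate 11, which had the lowest Fos, had the highest Jun, and Cre-miR122 replicate 4 had the lowest Jun. The group means of 14.5 ± 4.84 CPM in Cre-miR122 livers and 19.8 ± 5.01 CPM in Cre livers (SD, n = 3 each) gave a log2 fold change of -0.46 (SE 0.24, 95% interval -1.0 to 0.090, edgeR adjusted p = 0.816). Without Cre-miR122 replicate 4 it was -0.24, and without Cre-miR122 replicate 2 it was -0.73.

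Junb (chr8:84976909-84978748), whose protein shares the JUN binding site but is often a weaker activator, did not follow Jun. It had 15.9, 20.8 and 9.68 CPM in Cre-miR122 livers, against 10.6, 12.7 and 18.3 CPM in Cre livers. Cre-miR122 replicate 4 was lowest for both genes, whereas Cre replicate 12 was the highest of its group for Junb and the lowest of its group for Jun. The Junb log2 fold change was 0.16 (SE 0.27, 95% interval -0.45 to 0.77, edgeR adjusted p = 0.913), and it was -0.12 without Cre-miR122 replicate 2.

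Atf3 (chr1:191170296-191183333), a stress-induced member of the ATF/CREB family, had 23, 25 and 17 reads in Cre-miR122 livers and 26, 27 and 18 reads in Cre livers. Its levels of 1.15, 1.21 and 0.823 CPM in Cre-miR122 livers lay within or next to those of Cre livers, 1.29, 1.26 and 0.900 CPM. Cre-miR122 replicate 4 and Cre replicate 12 were its low libraries. Its log2 fold change was -0.12 (SE 0.27, 95% interval -0.72 to 0.48, edgeR adjusted p = 0.938). The value was 0.034 without Cre-miR122 replicate 4.

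Egr1 (chr18:34861207-34864956), a zinc finger factor and textbook target of serum response factor, was the member with the most reads, 698, 705 and 818 in Cre-miR122 livers and 818, 628 and 1100 in Cre livers. The 3 Cre-miR122 libraries were close to each other, at 34.8, 34.1 and 39.6 CPM, and lay inside the span of Cre livers, at 40.5, 29.3 and 55.0 CPM. Its standard deviation was 2.99 CPM in Cre-miR122 livers and 12.9 CPM in Cre livers. Cre replicate 12 was the high library, and without it the log2 fold change of -0.20 (SE 0.19, 95% interval -0.63 to 0.23, edgeR adjusted p = 0.839) became 0.053.

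Nr4a1 (chr15:101254213-101274795) encodes the orphan nuclear receptor NUR77, which glucagon and cAMP induce in mouse liver and which acts on gluconeogenic genes. It had 116, 80 and 39 reads in Cre-miR122 livers, against 47, 58 and 44 reads in Cre livers. As CPM these were 5.78, 3.87 and 1.89 in Cre-miR122 livers and 2.33, 2.7 and 2.20 in Cre livers. Cre-miR122 replicates 1 and 2 lay above all Cre livers and Cre-miR122 replicate 4 below them all, so the Cre-miR122 group held both the highest and the lowest value. The log2 fold change of Nr4a1 was 0.67 (SE 0.34, 95% interval -0.10 to 1.44, edgeR adjusted p = 0.816). It was 1.00 without Cre-miR122 replicate 4 (unadjusted p = 0.00218, adjusted p = 0.999) and 0.25 without Cre-miR122 replicate 1.

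Myc (chr15:61985341-61990361), the regulator of ribosome production and cell growth genes, had 10.8, 14.4 and 6.58 CPM in Cre-miR122 livers, against 6.93, 6.48 and 32.7 CPM in Cre livers. The value of Cre replicate 12 came from 653 reads, where the other 5 libraries had 136 to 298. It decided the group comparison: the log2 fold change of Myc was -0.53 (SE 0.57, 95% interval -1.81 to 0.75, edgeR adjusted p = 0.857) with all libraries and 0.66 (unadjusted p = 0.0523, adjusted p = 0.476) without Cre replicate 12. Neither value passed the test.

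Ier2 (chr8:84661331-84662852), which encodes a nuclear protein of the growth factor response, was the steadiest of the tested members. Its levels were 21.7, 27.1 and 19.8 CPM in Cre-miR122 livers, against 25.7, 26.6 and 29.6 CPM in Cre livers. Cre-miR122 replicates 1 and 4 lay below every Cre liver and Cre-miR122 replicate 2 among them. The log2 fold change of Ier2 was -0.25 (SE 0.12, 95% interval -0.53 to 0.021, edgeR adjusted p = 0.816), and every alternative kept it below 0, from -0.39 to -0.16.

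Ier3 (chr17:35821713-35822911), a stress-inducible protein linked to cell survival and NF-kB signalling, had 31, 22 and 19 reads in Cre-miR122 livers and 23, 17 and 15 reads in Cre livers. These were 1.55, 1.06 and 0.919 CPM in Cre-miR122 livers and 1.14, 0.792 and 0.750 CPM in Cre livers. Cre-miR122 replicate 1 was again the highest, as for Fos and Nr4a1, and the groups overlapped. The Ier3 log2 fold change was 0.39 (SE 0.30, 95% interval -0.28 to 1.06, edgeR adjusted p = 0.821), and it was 0.15 without Cre-miR122 replicate 1.

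**Figure D2:**
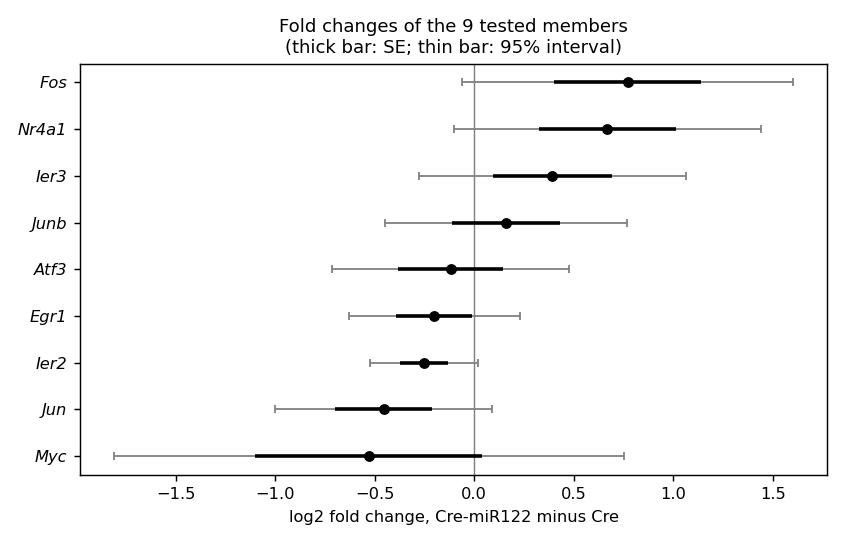
Log2 fold changes (Cre-miR122 minus Cre, horizontal axis) of the 9 tested members from edgeR, with thick bars for SE and thin bars for 95% intervals, over 3 libraries a group. All 9 intervals include 0, and that of Myc, -1.81 to 0.75, is the widest.

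The libraries differed in the members they held high. Of the 10 genes, Cre-miR122 replicate 1 was highest for 3 (Fos, Nr4a1 and Ier3), Cre-miR122 replicate 2 for 1 (Junb) and Cre-miR122 replicate 4 for 0. Cre replicate 10 was highest for 1 (Atf3), Cre replicate 11 for 2 (Jun and Fosb) and Cre replicate 12 for 3 (Egr1, Myc and Ier2). Cre-miR122 replicate 4 was lowest for 5 of the 10 (Jun, Junb, Atf3, Ier2 and Nr4a1), and Cre replicate 11 for 3 (Fos, Egr1 and Myc).

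Summed over the 10 genes, the level was 108, 123 and 90.6 CPM in Cre-miR122 replicates 1, 2 and 4, against 109, 106 and 156 CPM in Cre replicates 10, 11 and 12. That sum is weighted to Egr1, Ier2, Jun, Junb and Myc, the abundant members. With each of the 9 tested genes given equal weight, the mean log2 deviation from the gene's own 6-library mean was 0.25, 0.20 and -0.36 in Cre-miR122 livers and -0.099, -0.17 and 0.19 in Cre livers. Both groups therefore held libraries above and below the mean, and Cre-miR122 replicate 4 was the lowest of all.

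**Figure D3:**
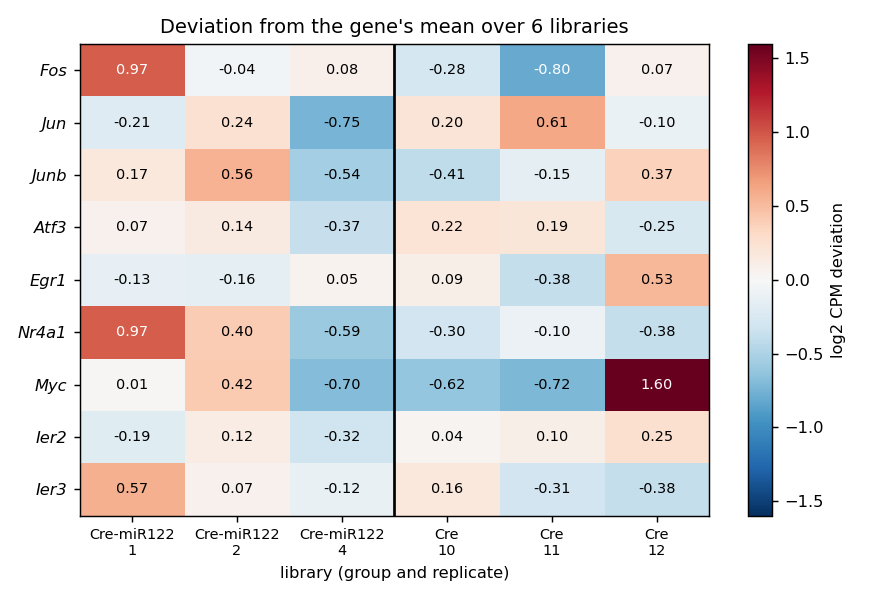
Log2 deviation of each tested member (rows) from its own mean over 6 libraries, by library (columns, Cre-miR122 left of the line and Cre right), with red above and blue below that mean. Each library mixes red and blue cells; the strongest are Myc in Cre replicate 12 and Fos and Nr4a1 in Cre-miR122 replicate 1.

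The members varied more within groups than most genes did. The median within-group standard deviation of log2 CPM was 0.43 for the 9 tested members and 0.157 for all 14374 tested genes. Set against genes within 2-fold of their own mean level, 5 of the 9 lay above 90% of such genes: Myc (standard deviation 1.01, above 99.96%), Junb (0.48, above 98.7%), Jun (0.43, above 98.4%), Nr4a1 (0.57, above 97.3%) and Egr1 (0.33, above 97.1%). These values pool both groups, and the spread was not even between them. In Cre-miR122 and Cre livers it was 0.79 and 0.15 for Nr4a1, 0.12 and 0.45 for Egr1, and 0.57 and 1.31 for Myc. For Junb it was 0.56 and 0.40, and for Jun 0.49 and 0.36. The median pooled value of genes of like level was 0.23 for Nr4a1 and 0.11 for Egr1. Fos had 0.50, above 83.9% of genes of like level, and Ier2 had 0.18, above 79.9%. Ier3 (0.33, above 47.4%) and Atf3 (0.27, above 33.2%), with few reads, were no more variable than their like. These figures describe the spread over 3 libraries a group and were not tested.

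**Figure D4:**
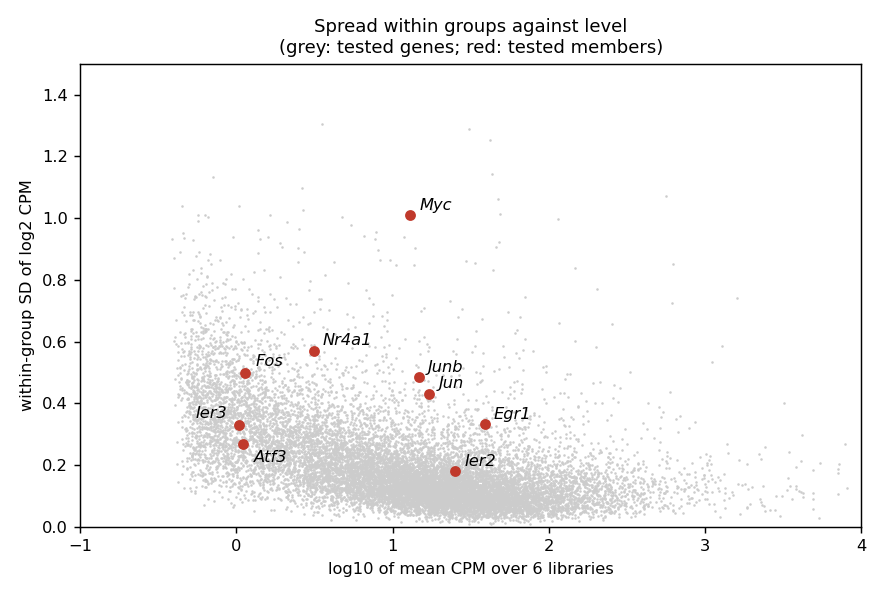
Within-group standard deviation of log2 CPM (vertical axis) against log10 of the mean CPM over 6 libraries (horizontal axis) for all tested genes in grey and the 9 tested members in red. Myc, at 1.01, stands far above genes of its level, while Ier3 and Atf3 sit within the grey cloud.

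The Myc value of Cre replicate 12 was followed up after it was seen. It lay 2.26-fold above the next library, and among 10139 genes with a mean of at least 5 CPM it ranked 1 for the gap by which Cre replicate 12 exceeded all other libraries. Foxq1, a forkhead factor, was next with a 1.54-fold gap. Egr1 ranked 6 in the same library with a 1.36-fold gap, just behind Spry4, an inhibitor of growth factor signalling, which had 33.0, 32.0 and 30.8 CPM in Cre-miR122 livers and 27.1, 23.0 and 45.1 CPM in Cre livers. Red blood cell markers were also high in Cre replicate 12: 5 of 5 tested were highest there (mean log2 deviation 0.62), with a summed level of the 7 in the table of 188, 248 and 237 CPM in Cre-miR122 livers and 113, 205 and 303 CPM in Cre livers, and their part in the Myc and Egr1 values was not tested. Genes that MYC is known to induce for ribosome production and growth did not stand high there: 23 of the 24 tested lay below their own 6-library mean in Cre replicate 12 and 10 were lowest in it, with a mean log2 deviation of -0.14. Lying below that mean was not particular to Cre replicate 12. It held for 18 of 24 in Cre-miR122 replicate 2 (mean -0.11) and 15 of 24 in Cre-miR122 replicate 4 (mean -0.075). In Cre-miR122 replicate 1 it held for 11 of 24 and in Cre replicate 10 for 6 of 24. The same list was highest in Cre replicate 11 (mean log2 deviation 0.22, 12 of 24 highest there), a library in which Myc was at its lowest. Nop56, a nucleolar protein of that list, had 35.8, 30.8 and 29.4 CPM in Cre-miR122 livers and 38.7, 54.7 and 30.7 CPM in Cre livers. For these counts per library the share over all tested genes was not computed. Any link between this list and the Myc values was not tested.

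Genes with the most similar pattern were ranked by Pearson's r over the 6 libraries with the mean deviation of the 9 tested members, among 10134 genes of at least 5 CPM. The highest were Wdr45 and Slc25a40 (both 0.98), Csrnp1 (0.97), and Klf11, Ikbip, Tob1, Zfp867 and Orc3 (all 0.96). The most opposed were Sec24c (-0.99) and Wdr5, Elavl1 and Dnajc12 (all -0.98). All points share the same 6 libraries and scaling, and with that many genes ranked over 6 points such values are a description only. Tob1, the most abundant of the alike genes, ran from 98.8 to 158 CPM, and Csrnp1 from 4.02 to 8.90 CPM.

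Genes around the members in the pathway were read from fixed lists, and by edgeR 0 genes passed the adjusted test in any of them. Of 12 tested AP-1 and bZIP partners outside the members, 7 were above 0 and 5 below, with a median log2 fold change of 0.046. Jund, the JUN protein present in resting cells, had 39.9, 48.5 and 45.6 CPM in Cre-miR122 livers and 51.7, 51.5 and 43.7 CPM in Cre livers, a log2 fold change of -0.13 (SE 0.10). Maff, a small bZIP partner without an activation domain, had 2.94, 2.42 and 1.98 CPM in Cre-miR122 livers and 4.16, 2.94 and 3.20 CPM in Cre livers (log2 fold change -0.49, SE 0.21, unadjusted p = 0.0456). Batf3 and Batf, AP-1 factors of lymphoid and myeloid cells, gave log2 fold changes of -0.66 (SE 0.29) and -0.73 (SE 0.37) at levels near 1 CPM, and Fosl1 had no reads in any library. Markers of B cells were lower too: 7 of 7 tested markers were below 0 and their summed level was 15.3, 21.3 and 18.8 CPM in Cre-miR122 livers, against 28.5, 33.6 and 26.0 CPM in Cre livers, without overlap. The defining markers Cd79a and Ms4a1 were above 0 in every library. Markers of neutrophils and monocytes were also lower in sum, at 16.6, 16.2 and 15.8 CPM in Cre-miR122 livers and 18.4, 23.0 and 21.8 CPM in Cre livers. Of these 8 markers 6 were tested, 0 above 0 and 6 below. Mmp8, not among those tested, had 0.598, 0.435 and 0.290 CPM in Cre-miR122 livers and 0.396, 0.420 and 0.150 CPM in Cre livers. Markers of T and NK cells overlapped, with 2 of 8 tested above 0. Their sum was 6.68, 6.48 and 7.16 CPM in Cre-miR122 livers and 6.24, 8.39 and 7.40 CPM in Cre livers. The part of any of these lists in the results on immediate early genes was not tested.

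Among other EGR, NR4A and IER genes and EGR co-repressors, 5 of 9 were tested, 2 above 0 and 3 below, with a median of -0.0089. Ier5, a relative of Ier2, had 8.88, 10.8 and 9.63 CPM in Cre-miR122 livers and 10.8, 11.6 and 12.5 CPM in Cre livers, with the highest Cre-miR122 value just under the lowest Cre value (log2 fold change -0.25, SE 0.12). Nab2, which restrains EGR1, overlapped widely (log2 fold change 0.068, SE 0.16), as did Ier5l (log2 fold change -0.34, SE 0.43). Egr2, Egr3 and Nr4a3 were below the filter, and Egr4 had no reads.

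In the MYC network 12 genes were tested, 8 above 0 and 4 below, with a median of 0.058. Mycl, the MYC family member active in dendritic cells, had 18.2, 19.4 and 16.9 CPM in Cre-miR122 livers and 13.1, 10.8 and 16.0 CPM in Cre livers, without overlap (log2 fold change 0.45, SE 0.14, unadjusted p = 0.00927, edgeR adjusted p = 0.816). Mxd4, which competes with MYC for MAX, gave a log2 fold change of 0.34 (SE 0.16), and Mlxipl, the carbohydrate response factor ChREBP, one of -0.17 (SE 0.091). The MYC-induced growth genes had 7 of 24 above 0 and 17 below, with a median of -0.095; log2 fold changes were -0.37 (SE 0.18) for Nop56, -0.35 (SE 0.18) for Nop2 and -0.32 (SE 0.16) for Srm.

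A wider list of 38 tested immediate early and response genes had 20 above 0 and 18 below, with a median of 0.021. Its mean log2 deviation was highest in Cre-miR122 replicate 1 and lowest in Cre-miR122 replicate 4, as for the members. Cre-miR122 replicate 1 was highest for 18 of 38 (mean 0.28), and Cre-miR122 replicate 4 was lowest for 12 of 38 (mean -0.24). For the 9 tested members these counts were 3 and 5. Cre-miR122 replicate 1 was also highest for 4 of 8 hepatocyte markers and 0 of 8 Kupffer cell and macrophage markers. The share over all tested genes was not computed. In other libraries the wider list was less like the members. Cre-miR122 replicate 2 was lowest for 9 of 38 (mean 0.018), but for 0 of the 9 tested members (mean 0.20). Cre replicate 12 was highest for 6 of 38 (mean 0.060), against 3 of the 9 tested members (mean 0.19). Btg2, an antiproliferative gene, had 62.1, 43.9 and 34.2 CPM in Cre-miR122 livers and 40.6, 29.8 and 34.4 CPM in Cre livers (log2 fold change 0.42, SE 0.20). Klf6, a zinc finger factor, had 15.6, 15.5 and 15.5 CPM in Cre-miR122 livers and 15.1, 11.9 and 14.0 CPM in Cre livers, without overlap (log2 fold change 0.19, SE 0.11). Irs2, the insulin receptor substrate that fasting induces in liver, ran at 22.9, 18.3 and 18.6 CPM in Cre-miR122 livers and 10.2, 4.99 and 19.8 CPM in Cre livers (log2 fold change 0.78, SE 0.37). Cyr61, a secreted target of serum response factor and YAP, gave a log2 fold change of 0.30 (SE 0.14), and Hes1, a repressor downstream of Notch, one of -0.52 (SE 0.22, unadjusted p = 0.0388).

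Genes that switch the response off were the list with the most positive median, 0.13, with 12 of 16 above 0. Of all 14374 tested genes, 7096 were above 0. By library the list overlapped between the groups. Its mean log2 deviation was 0.16, 0.15 and -0.13 in Cre-miR122 replicates 1, 2 and 4, against -0.099, -0.17 and 0.084 in Cre replicates 10, 11 and 12. Dusp1, the phosphatase that inactivates p38 and JNK kinases, had 75.0, 49.1 and 15.1 CPM in Cre-miR122 livers, against 19.2, 19.2 and 24.6 CPM in Cre livers. Its order within the Cre-miR122 group was that of Nr4a1, with replicates 1 and 2 above all Cre livers and replicate 4 below them all, and its log2 fold change was 1.14 (SE 0.44, unadjusted p = 0.0272, edgeR adjusted p = 0.816). Dusp6, the ERK phosphatase, had 46.9, 41.5 and 43.3 CPM in Cre-miR122 livers and 38.7, 33.9 and 38.6 CPM in Cre livers, without overlap (log2 fold change 0.24, SE 0.089, unadjusted p = 0.0219). Spred1, a RAS pathway inhibitor, was likewise free of overlap (log2 fold change 0.21, SE 0.086, unadjusted p = 0.0337). Zfp36, which directs the decay of early RNAs, had 77.6, 59.2 and 47.9 CPM in Cre-miR122 livers and 59.3, 45.8 and 67.8 CPM in Cre livers (log2 fold change 0.095, SE 0.18).

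Upstream kinases and transcription factors had 16 of 23 above 0 and a median of 0.050. Srf, serum response factor, hardly differed, with 14.7, 15.9 and 16.2 CPM in Cre-miR122 livers and 15.5, 16.4 and 15.2 CPM in Cre livers (log2 fold change -0.0075, SE 0.089). For Elk1, its partner factor, the log2 fold change was 0.25 (SE 0.15), and for the kinase Braf 0.15 (SE 0.084). Crem, a cAMP responsive factor, had 14.1, 14.9 and 13.3 CPM in Cre-miR122 livers and 16.3, 19.0 and 15.8 CPM in Cre livers, without overlap (log2 fold change -0.27, SE 0.10, unadjusted p = 0.0269). Of 14 tested growth factor ligands and receptors, 5 were above 0 and 9 below, with a median of -0.11; log2 fold changes were 0.50 (SE 0.26) for Erbb3, 0.21 (SE 0.14) for Hgf and -0.15 (SE 0.084) for Pdgfrb.

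NF-kB and inflammatory early genes had 3 of 13 above 0 and 10 below, with a median of -0.065. Nfkbia, the NF-kB inhibitor that NF-kB itself induces, had 25.9, 22.9 and 26.6 CPM in Cre-miR122 livers and 30.1, 30.7 and 29.7 CPM in Cre livers, without overlap (log2 fold change -0.26, SE 0.085, unadjusted p = 0.0122, edgeR adjusted p = 0.816). For Icam1, an adhesion receptor for leukocytes, the log2 fold change was -0.23 (SE 0.11), and for Relb, an NF-kB subunit, -0.28 (SE 0.18). Heat shock genes, which are induced together with immediate early genes by many stresses, had 4 of 9 above 0 and a median of -0.055. The chaperone genes Hsph1, Bag3 and Hspd1 had log2 fold changes of -0.22 (SE 0.16), -0.19 (SE 0.12) and 0.14 (SE 0.10).

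Candidate targets of AP-1, EGR1 and ATF3 had 5 of 16 above 0 and 11 below, with a median of -0.10. Ccnd1, cyclin D1, had 40.4, 43.5 and 56.7 CPM in Cre-miR122 livers and 32.0, 35.6 and 42.2 CPM in Cre livers (log2 fold change 0.36, SE 0.14, unadjusted p = 0.0332). Vegfa, the vascular growth factor, was lower without overlap at 258, 261 and 219 CPM in Cre-miR122 livers and 263, 337 and 283 CPM in Cre livers (log2 fold change -0.26, SE 0.11, unadjusted p = 0.0489).

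**Figure D5:**
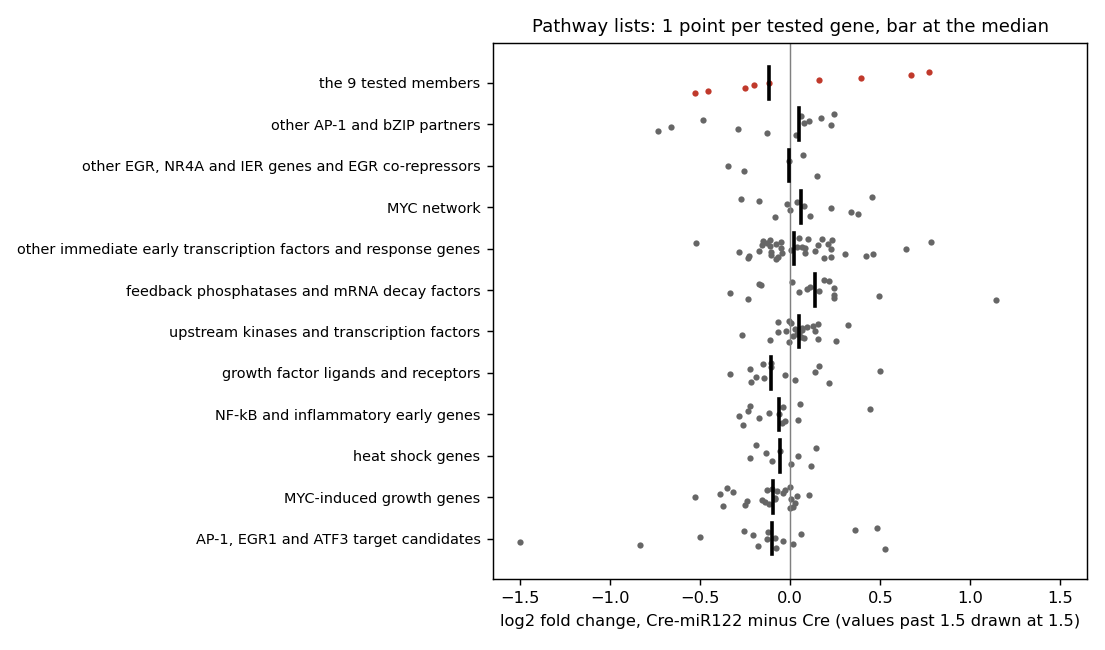
Log2 fold changes (Cre-miR122 minus Cre, horizontal axis) of the tested genes in each pathway list (rows), 1 point a gene, red for the members and grey for the other lists, with a black bar at the list's median. Medians lie between -0.12 for the members (0.29 without Cre replicate 12) and 0.13 for the feedback list; values past the axis limit are drawn at it.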

How the data were processed

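The deposited table holds raw counts of reads per gene, as whole numbers without normalization, and a column of gene lengths in bases. The submitters' processing notes name STAR 2.7.9a, featureCounts 2.0.1 and build GRCm38 (mm10). Strand setting and handling of multi-mapping reads are not given in these notes, and no exon of another annotated gene overlaps an exon of the 10 members. In the table, 5 columns of per-sample values matched no sample and were not used.

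Members were matched by symbol. Genes passing filterByExpr were tested with the edgeR 4.0.16 quasi-likelihood F test in R 4.3.3. It used TMM scaling, group as the only term and Benjamini-Hochberg adjustment over all tested genes at 0.05. The test was also run on simulated data in which only genes of at least 5 CPM were changed. Changes at the lower levels of Fos, Fosb, Atf3, Nr4a1 and Ier3 were therefore not simulated. SE came from the F statistic. CPM used TMM-scaled library sizes; log2 CPM used a prior count of 2. Exact 95% Poisson intervals were computed for counts, and these cover only counting error. Alternatives used DESeq2 1.42.0 and limma 3.58.1 (voom), other scalings and filters, a term for sex and each library left out. Members and lists were chosen with earlier results of these data known. Named beside the members were the 3 genes of smallest unadjusted p in each list, 7 genes always named (Dusp1, Zfp36, Klf6, Btg2, Cyr61, Srf and Jund), and the 8 most and 4 least alike genes. Foxq1 and Spry4 were added after their values were seen. A gene that the rule for lists names is not reported here.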

Additional observations from a re-analysis of the deposited data

How the results depend on the processing

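With edgeR, 0 genes passed the adjusted test with all libraries and under 14 of the alternatives not named next; with no filter on low counts 2 genes passed, and with DESeq2 3 genes, none of them an immediate early gene. The smallest adjusted p of any member under any alternative was 0.470 (Fos and Jun, without Cre replicate 12). Genes at an unadjusted p under 0.05 numbered 778 with all libraries, 1169 with no filter, and 425 to 1535 with 1 library left out: 425 with Cre-miR122 replicate 4 out, 467 with Cre replicate 11 out and 1535 with Cre replicate 12 out. The direction turned for 4 members, each with 1 library left out: Junb (-0.12 to 0.41, below 0 without Cre-miR122 replicate 2), Egr1 (-0.40 to 0.053, above 0 without Cre replicate 12), Atf3 (-0.26 to 0.034, above 0 without Cre-miR122 replicate 4) and Myc (-0.90 to 0.66, above 0 without Cre replicate 12); the cause was not tested. Over all 16 alternatives the other members kept their sign: Fos 0.36 to 1.02, Jun -0.73 to -0.24, Ier2 -0.39 to -0.16, Ier3 0.15 to 0.60 and Nr4a1 0.25 to 1.00. The term for sex set apart only Cre replicate 10, so it and leaving out that library were not separate checks. Both gave 0.78 for Fos and -0.88 for Myc. The median of the tested members was -0.12 with all libraries, 0.29 after leaving out Cre replicate 12 and 0.034 after leaving out Cre-miR122 replicate 4. No paired analysis was possible because the groups share no replicate numbers. Depth limits Fosb most (5 to 9 reads a library, below the filter), then Fos (12 to 43), Ier3 (15 to 31) and Atf3 (17 to 27).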
